A study of Mus musculus with 12 samples.

Results

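Type I interferon-stimulated genes are the genes that cells switch on when type I interferon reaches its receptor. A list of 35 of them, taken by symbol, was followed in mouse medulloblastoma, a tumour of the cerebellum. Of the 35, 33 were found among the 15672 genes of the table, and Mx1 and Mx2 were not analysed here. Whole tumour RNA taken at end point was sequenced in bulk as 12 libraries, which fall into 4 groups of 3 by genotype and by sex. The YSGr mice had the genotype fYap1;fSMO-M2;hGFAPcre and the label rescued, whose meaning the labels leave unstated; libraries 10 to 12 were from females and 7 to 9 from males. The SG mice had the genotype fSMO-M2;hGFAPcre; libraries 4 to 6 were from females and 1 to 3 from males. All groups thus shared fSMO-M2, a conditional allele of constitutively active Smoothened that drives the Hedgehog pathway, and Cre recombinase under the human GFAP promoter, which is active in neural progenitors and in astrocytes. YSGr mice carried in addition a floxed allele of Yap1, which encodes a transcriptional coactivator of the Hippo pathway. The labels give no ages.

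Type I interferons bind a receptor made of IFNAR1 and IFNAR2, and the kinases JAK1 and TYK2 then pass the signal on by phosphorylation. The factor ISGF3, which contains STAT2 and IRF9, then binds interferon-stimulated response elements in the promoters of the target genes. The targets include RNA sensors, enzymes that degrade or sequester viral RNA, the ubiquitin-like modifier ISG15, and IRF7, which amplifies interferon production. In brain, microglia, infiltrating myeloid cells, astrocytes and neurons can all carry such a response.

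Response elements repeat the bases GAAA, and the word searched in the promoters was GAAA, any 2 bases, GAAA, on both strands. The promoter windows were those of RefSeq on build GRCm38.p6, from 250 bases before to 50 bases after each gene's start, and 26 of the 33 genes in the table had one. The stretches below show the words in members whose levels are described further on, because this is the sequence that ISGF3 and the interferon regulatory factors recognise. They run 5′ to 3′ on the gene's strand, and capitals mark each word, which reads TTTC, any 2 bases, TTTC when it lies on the opposite strand.
Isg15 (chr4:156200865-156200906, minus strand): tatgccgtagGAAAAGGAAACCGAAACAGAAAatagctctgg
Ifit1 (chr19:34640775-34640823, plus strand): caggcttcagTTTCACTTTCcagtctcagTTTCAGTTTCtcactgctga
Ifit3 (chr19:34583363-34583426, plus strand): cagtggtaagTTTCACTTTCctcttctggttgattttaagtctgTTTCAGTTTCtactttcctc
Ifit3b (chr19:34607759-34607822, plus strand): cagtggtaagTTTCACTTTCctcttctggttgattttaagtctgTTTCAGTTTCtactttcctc
Oas1a (chr5:120907520-120907555, minus strand): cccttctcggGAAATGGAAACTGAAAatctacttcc
Bst2 (chr8:71537577-71537612, minus strand): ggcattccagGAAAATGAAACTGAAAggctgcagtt
Stat2 (chr10:128270266-128270295, plus strand): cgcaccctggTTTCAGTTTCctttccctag
Rsad2 (chr12:26456553-26456582, minus strand): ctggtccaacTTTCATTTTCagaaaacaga
The word stood in the window of 13 of the 26 members (50%) and of 3.69% of the 11045 tested genes with a window. Isg15 held 3 overlapping words, and the stretch shown for Ifit3 was the same, base for base, as that of its neighbour Ifit3b. A match is a description of the letters and not a measured binding site.

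Library depth was even, at 8854775 to 9478652 estimated reads. A single read equalled 0.100 to 0.111 CPM, so that the floor, set at 3 reads, was 0.301 to 0.333 CPM. Yap1 was lower in all 6 YSGr libraries, at 0.21, 0.55 and -0.02 log2 CPM in females 10 to 12 and 1.82, 1.72 and 0.73 in males 7 to 9, against 4.29 to 4.80 log2 CPM in the SG libraries. Its log2 fold change was -3.64 (SE 0.20). Markers of granule neuron progenitors, the cells from which Hedgehog-driven medulloblastoma arises, were abundant in all libraries: 12 of them summed to 4359 to 7274 CPM in YSGr and 5862 to 6768 CPM in SG. Of the 12, Gli1, Ccnd1, Atoh1 and Barhl1 were called lower in YSGr and 0 higher, with a median log2 fold change of -0.25. Of all genes tested, 5.27% were called lower. The part of these markers in the results below was not tested. YSGr male 8 and SG male 2 lay farthest from the means of their groups, with root mean square differences of 0.453 and 0.443 log2 CPM over all genes tested, and YSGr female 11 followed at 0.418. In the other libraries that difference was 0.182 to 0.365 log2 CPM. Counts are therefore also given without YSGr male 8 and SG male 2.

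Many interferon-stimulated genes were higher in YSGr tumours, but not in all YSGr libraries to the same degree. Averaged over the sexes, 14 of the 30 members tested rose in YSGr and 0 fell, at an adjusted p under 0.05 in limma. Over all 14147 genes tested, 6.16% were called higher and 5.27% lower. The median log2 fold change of the 30 members was 0.79, against -0.005 over all genes tested, and 28 of the 30 were above 0. Irf7, Oas1a, Ifit1, Ifit3, Bst2, Trim30a, Parp14 and Lgals3bp kept their call when any 1 of the 12 libraries was left out. Without YSGr male 8 and SG male 2, 11 members were called and the median was 0.91, while 954 of 14034 genes tested were called higher. In bulk tissue, more cells of a type and more RNA per cell cannot be told apart. A gene was tested when it exceeded 0 log2 CPM in at least 3 libraries: 24 members passed on the SG libraries alone, Oas1a, Ifit1, Xaf1, Isg15, Usp18 and Ifi44 passed through YSGr libraries (the first 4 of these are among the 14 called), and Oas2, Oas3 and Oasl1 did not pass. The calls of Oas1a, Ifit1, Xaf1 and Isg15 are therefore no support, also where they held with a library left out. The count of 14 and the median of 0.79 include such genes. With no such filter, 13 of all 33 members were called higher, with Oas3 added and Oasl2 and Ifit3b lost, and the median was 0.81; over all 15672 genes, 5.44% were then called higher.

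**Figure D1:**
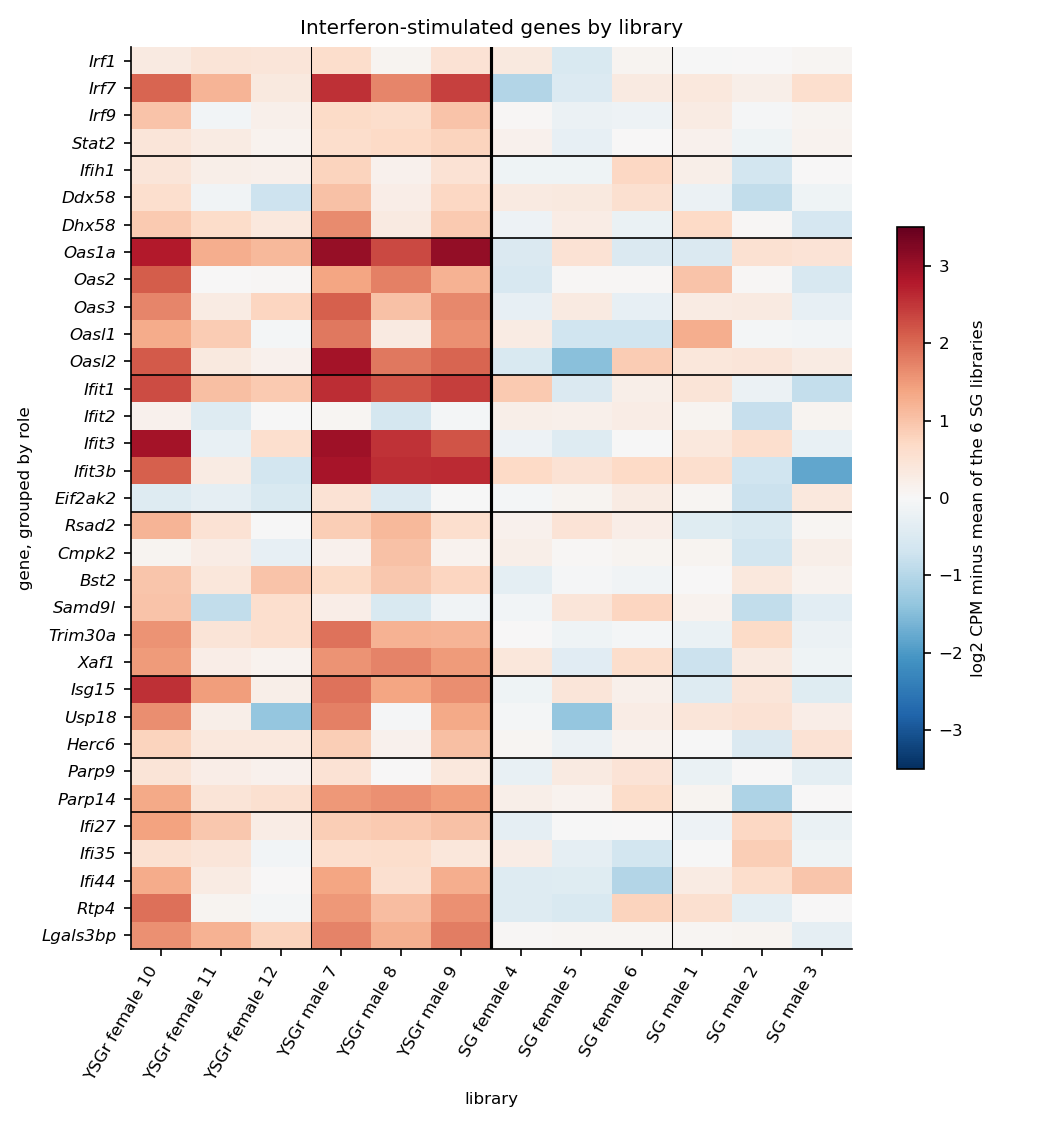
Expression of the 33 interferon-stimulated genes (rows, grouped by role) in 12 libraries (columns, YSGr left of SG), as log2 CPM minus the mean of the 6 SG libraries of each gene. YSGr males 7 to 9 and YSGr female 10 are red over most rows, and YSGr females 11 and 12 are paler, with 21 and 27 of the 33 genes within the range of the SG libraries.

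The YSGr libraries were not alike. YSGr male 7 exceeded all 6 SG libraries in 26 of the 30 members tested, against 24% of all genes tested. YSGr male 8 did so in 18 members (32.1% of all genes), and YSGr male 9 in 23 (27.9% of all genes). YSGr female 10 did so in 23 members, against 23.2% of all genes. YSGr female 11 did so in 11 members, against 24.1% of all genes. YSGr female 12 did so in 5 members, or 16.7%, and thus no more often than the 22.3% seen over all genes. These counts include Oas1a, Ifit1, Xaf1, Isg15, Usp18 and Ifi44, which passed the filter only through YSGr libraries and are no support. All of these genes lay above every SG library in YSGr males 7 and 9 and in YSGr female 10, which raises the counts there. Oas1a and Ifit1 did so in every YSGr library. Summed over the 33 genes in the table, the level was 273, 176 and 168 CPM in YSGr females 10, 11 and 12 and 288, 226 and 271 CPM in YSGr males 7, 8 and 9. The SG libraries held 123 to 165 CPM. YSGr female 12 had the lowest YSGr value for 19 of the 33 genes, YSGr female 11 for 8 and YSGr male 8 for 6, while YSGr male 7 had the highest for 16.

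**Figure D2:**
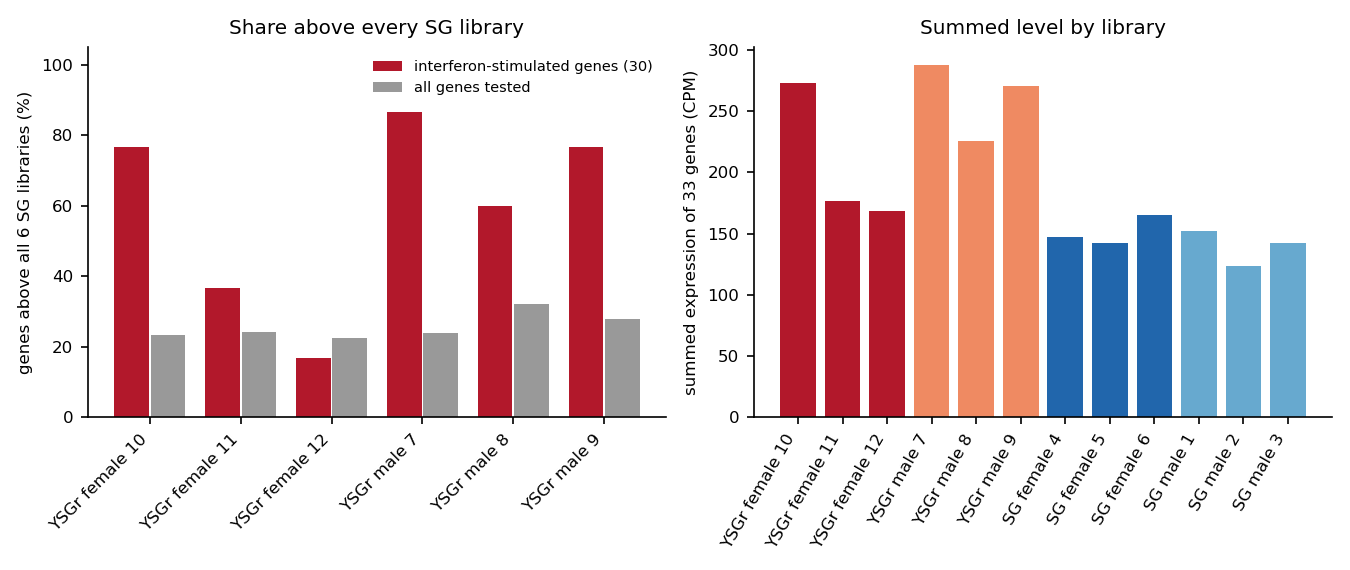
Left, share of the 30 tested interferon-stimulated genes and of all genes tested whose level exceeded all 6 SG libraries, for each YSGr library; right, summed level of 33 genes in CPM by library, with YSGr left of SG. The share of interferon-stimulated genes runs from 16.7% in YSGr female 12 to 86.7% in YSGr male 7, while that of all genes lies between 22.3% and 32.1%. The 30 include Oas1a, Ifit1, Xaf1, Isg15, Usp18 and Ifi44, which passed the filter only through YSGr libraries.

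Of the 4 transcription factors, Irf7 and Stat2 rose, and Irf1 and Irf9 did not pass the test. Irf7, the factor that amplifies interferon production, stood at 2.11, 1.26 and 0.40 log2 CPM in YSGr females and 2.62, 1.76 and 2.46 in YSGr males, against -0.96, -0.40 and 0.38 in SG females and 0.43, 0.27 and 0.66 in SG males. Every YSGr library but female 12 lay above all SG libraries. The mean was 3.63 CPM in YSGr and 0.91 CPM in SG, and the averaged log2 fold change was 1.70 (SE 0.32, adjusted p = 0.0053). Stat2, a subunit of ISGF3, stood at 4.76, 4.64 and 4.47 log2 CPM in YSGr females and 4.97, 5.03 and 5.14 in YSGr males, against 4.49, 4.07 and 4.36 in SG females and 4.49, 4.18 and 4.47 in SG males. Its spread was narrow in both genotypes, and again YSGr female 12 was the one YSGr library within the SG range. The log2 fold change was 0.49 (SE 0.11, adjusted p = 0.016), and the call was lost without SG female 5 (adjusted p = 0.052). Irf9, the DNA-binding subunit of ISGF3, stood at 4.56, 3.46 and 3.75 log2 CPM in YSGr females and 4.23, 4.18 and 4.57 in YSGr males, against 3.61, 3.37 and 3.41 in SG females and 3.85, 3.54 and 3.66 in SG males. Here 4 YSGr libraries lay above all SG libraries and females 11 and 12 lay among them (log2 fold change 0.55, SE 0.18, adjusted p = 0.060). Irf1, an early factor that interferon gamma also induces, stood at 2.45, 2.59 and 2.55 log2 CPM in YSGr females and 2.75, 2.22 and 2.63 in YSGr males, against 2.48, 1.61 and 2.23 in SG females and 2.11, 2.15 and 2.21 in SG males. The groups overlapped through YSGr male 8 and SG female 4 (log2 fold change 0.40, SE 0.18, adjusted p = 0.16).

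None of the 3 cytoplasmic RNA sensors passed the test (0 of 3 in limma, with 1 at an unadjusted p under 0.05, Dhx58). Ifih1 encodes MDA5, which binds long duplex RNA, and stood at 2.70, 2.49 and 2.47 log2 CPM in YSGr females and 3.06, 2.44 and 2.79 in YSGr males, against 2.13, 2.12 and 3.02 in SG females and 2.50, 1.63 and 2.31 in SG males. The groups overlapped, with SG female 6 near the highest YSGr library (log2 fold change 0.37, SE 0.22, adjusted p = 0.27). Ddx58 encodes RIG-I, which senses RNA ends, and stood at 2.73, 2.02 and 1.41 log2 CPM in YSGr females and 3.18, 2.38 and 2.86 in YSGr males, against 2.46, 2.47 and 2.69 in SG females and 1.93, 1.28 and 2.00 in SG males. YSGr females 11 and 12 were below all 3 SG females, while the YSGr males were above all 3 SG males (averaged log2 fold change 0.29, SE 0.24, adjusted p = 0.45). Dhx58 encodes LGP2, a regulator of the other sensors, and stood at 1.27, 0.99 and 0.73 log2 CPM in YSGr females and 2.01, 0.67 and 1.25 in YSGr males, against 0.17, 0.60 and 0.12 in SG females and 1.04, 0.40 and -0.25 in SG males. The groups overlapped through SG male 1 (log2 fold change 0.80, SE 0.29, adjusted p = 0.094).

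The oligoadenylate synthetases make the short messenger that activates RNase L, which then cleaves RNA. Both members of the family that could be tested rose. Oas1a had 17.6, 5 and 4 estimated reads in YSGr females and 22.5, 12 and 22.6 in YSGr males, against 0, 2 and 0 in SG females and 0, 2 and 2 in SG males. All 6 YSGr libraries lay above all 6 SG libraries, each of which was at or under the floor of 3 reads. Its log2 fold change was 2.27 (SE 0.39, adjusted p = 0.0028), on a scale that understates the change of low genes. Of its transcript words of 50 bases, 57.6% also occur in Oas1g, so the counting could split reads between these genes. Oas1a and Oas1g together had 4 to 25 reads per YSGr library and 0 to 3 per SG library. Oasl2, an oligoadenylate synthetase-like gene, stood at 2.70, 0.91 and 0.73 log2 CPM in YSGr females and 3.47, 2.41 and 2.61 in YSGr males, against 0.03, -0.89 and 1.45 in SG females and 0.97, 0.99 and 0.84 in SG males. YSGr females 11 and 12 lay within the SG range and the other 4 YSGr libraries above it. The log2 fold change was 1.57 (SE 0.42, adjusted p = 0.029), and the call held in 7 of the 12 fits that left out a library. Oas2 had 11, 1 and 1 reads in YSGr females and 6, 8 and 5 in YSGr males, against 0 to 4 in the SG libraries. Oas3 had 6, 1 and 2 reads in YSGr females and 9, 3 and 6 in YSGr males, against 0 or 1 in the SG libraries. Oasl1, which in mouse restrains the translation of Irf7, had 1 to 10 reads in YSGr libraries and 0 to 6 in SG libraries. The YSGr minus SG differences of mean log2 CPM were 1.09 for Oas2, 1.25 for Oas3 and 0.98 for Oasl1, at counts so low that their size cannot be read.

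Of the IFIT genes, whose products bind viral RNA, Ifit1, Ifit3 and Ifit3b rose and Ifit2 did not. Ifit1, which recognises RNA without the host's cap methylation, stood at 1.88, 0.65 and 0.52 log2 CPM in YSGr females and 2.18, 1.81 and 2.01 in YSGr males, against 0.51, -0.89 and -0.21 in SG females and 0.05, -0.61 and -1.25 in SG males. The YSGr libraries lay above the SG libraries, although YSGr female 12, at 11 reads, and SG female 4, at 12 reads before scaling to library size, were nearly equal. The means were 2.91 CPM in YSGr and 0.61 CPM in SG (log2 fold change 1.90, SE 0.34, adjusted p = 0.0036). Ifit3, a partner of Ifit1, stood at 3.52, 0.36 and 1.19 log2 CPM in YSGr females and 3.58, 3.14 and 2.81 in YSGr males, against 0.42, 0.15 and 0.59 in SG females and 0.98, 1.19 and 0.34 in SG males. YSGr libraries 7 to 10 stood well above the SG range and YSGr females 11 and 12 inside it (log2 fold change 1.82, SE 0.43, adjusted p = 0.017). Ifit3b, its paralogue, stood at 1.68, -0.14 and -1.07 log2 CPM in YSGr females and 2.47, 2.16 and 2.20 in YSGr males, against 0.28, 0.09 and 0.28 in SG females and 0.18, -1.11 and -2.24 in SG males. The log2 fold change was 1.64 (SE 0.47, adjusted p = 0.039), and the call held in 2 of the 12 fits that left out a library. Ifit3 shares 51.2% of its words of 50 bases with Ifit3b, so their split is uncertain. Their summed reads were 136, 17 and 21 in YSGr females and 170, 121 and 108 in YSGr males, against 21, 16 and 21 in SG females and 26, 21 and 10 in SG males. Among the YSGr libraries the sum thus gave the same order as Ifit3, with YSGr females 11 and 12 at the level of SG. The order among the SG libraries differed.

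Ifit2, another member of the family, stood at 4.02 to 4.78 log2 CPM in YSGr and 3.84 to 4.88 in SG (log2 fold change -0.16, SE 0.18, adjusted p = 0.60). Eif2ak2 encodes PKR, the kinase that halts translation when it binds duplex RNA, and stood at 2.44 to 3.47 log2 CPM in YSGr and 2.22 to 3.32 in SG (log2 fold change -0.21, SE 0.21, adjusted p = 0.54). Neither was called, and their 95% intervals ran from -0.55 to 0.24 for Ifit2 and from -0.67 to 0.25 for Eif2ak2.

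**Figure D3:**
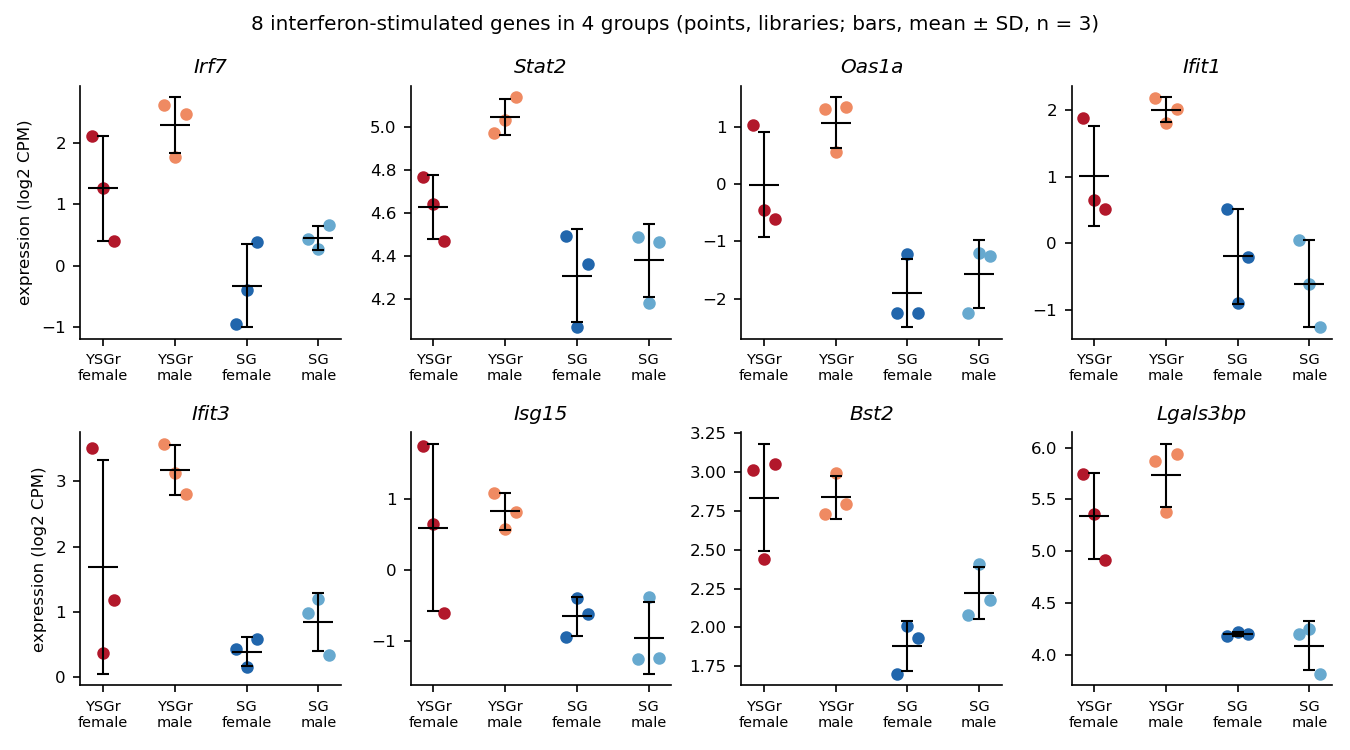
Expression in log2 CPM of 8 interferon-stimulated genes in the 4 groups, with YSGr left of SG; points are libraries and bars are mean ± SD (n = 3). In Ifit3 and Oas1a the YSGr females split into female 10, at the level of the YSGr males, and females 11 and 12 below it, whereas in Bst2 the lowest YSGr female is female 11 at 2.44.

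Among the antiviral effectors, Bst2, Trim30a and Xaf1 rose, and Rsad2, Cmpk2 and Samd9l did not pass the test. Bst2 encodes tetherin, which holds budding virus particles at the cell surface, and stood at 3.01, 2.44 and 3.06 log2 CPM in YSGr females and 2.73, 2.99 and 2.79 in YSGr males, against 1.70, 2.01 and 1.93 in SG females and 2.08, 2.41 and 2.18 in SG males. The genotypes did not overlap, and YSGr female 12 was the highest library (log2 fold change 0.78, SE 0.16, adjusted p = 0.0086). Trim30a, a TRIM protein that restrains NF-kappaB signalling in mouse, stood at 2.44, 1.32 and 1.46 log2 CPM in YSGr females and 2.76, 2.08 and 2.06 in YSGr males, against 0.88, 0.70 and 0.80 in SG females and 0.63, 1.52 and 0.66 in SG males. SG male 2 alone among SG libraries reached the level of YSGr females 11 and 12 (log2 fold change 1.16, SE 0.26, adjusted p = 0.013). Xaf1, which binds the apoptosis inhibitor XIAP, stood at 1.00, -0.26 and -0.38 log2 CPM in YSGr females and 1.08, 1.22 and 0.98 in YSGr males, against -0.12, -0.89 and 0.12 in SG females and -1.26, -0.19 and -0.66 in SG males. YSGr females 11 and 12 lay within the SG range (log2 fold change 1.11, SE 0.33, adjusted p = 0.045), and the call held in 3 of the 12 fits that left out a library. Rsad2 encodes viperin, which makes a nucleotide that terminates viral RNA chains, and stood at 0.14 to 1.33 log2 CPM in YSGr and -0.39 to 0.60 in SG (log2 fold change 0.72, SE 0.26, adjusted p = 0.090). Cmpk2, the mitochondrial nucleotide kinase gene next to Rsad2 on chromosome 12, stood at 2.73 to 4.06 log2 CPM in YSGr and 2.38 to 3.23 in SG (log2 fold change 0.23, SE 0.21, adjusted p = 0.48). Samd9l, a restriction factor for poxviruses, stood at 1.99 to 3.86 log2 CPM in YSGr and 1.99 to 3.61 in SG (log2 fold change 0.05, SE 0.31, adjusted p = 0.93).

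ISG15 is joined to other proteins much as ubiquitin is, in mouse by the ligase HERC6 among others, and USP18 removes it and also blocks the interferon receptor. Isg15 had 30, 13 and 4 estimated reads in YSGr females and 19, 12 and 15 in YSGr males, against 3, 5 and 4 in SG females and 2, 5 and 2 in SG males. YSGr female 12 was again the one YSGr library within the SG range. The means were 1.61 CPM in YSGr and 0.38 CPM in SG (log2 fold change 1.52, SE 0.37, adjusted p = 0.020), and the call was lost without SG female 4 (adjusted p = 0.053). Usp18 had 14, 4 and 0 reads in YSGr females and 16, 3 and 11 in YSGr males, against 3, 0 and 4 in SG females and 5, 5 and 4 in SG males. YSGr libraries 7, 9 and 10 stood above all SG libraries and the other YSGr libraries did not (log2 fold change 0.59, SE 0.51, adjusted p = 0.47). Herc6 stood at 2.11, 1.69 and 1.68 log2 CPM in YSGr females and 2.18, 1.46 and 2.37 in YSGr males, against 1.40, 1.13 and 1.45 in SG females and 1.31, 0.82 and 1.84 in SG males. Its groups overlapped through SG male 3 (log2 fold change 0.59, SE 0.23, adjusted p = 0.11).

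Parp14 and Parp9 encode ADP-ribosyltransferases that act in interferon signalling. Parp14 stood at 2.53, 1.64 and 1.78 log2 CPM in YSGr females and 2.73, 2.81 and 2.68 in YSGr males, against 1.40, 1.32 and 1.85 in SG females and 1.31, 0.14 and 1.21 in SG males. It rose (log2 fold change 1.16, SE 0.24, adjusted p = 0.0094), with YSGr females 11 and 12 below SG female 6. Parp9 stood at 2.79 to 3.27 log2 CPM in YSGr and 2.42 to 3.25 in SG and was not called (log2 fold change 0.29, SE 0.17, adjusted p = 0.27).

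Of the remaining 5 genes, Ifi27 and Lgals3bp rose. Lgals3bp, a secreted glycoprotein that binds galectins, stood at 5.75, 5.36 and 4.92 log2 CPM in YSGr females and 5.87, 5.38 and 5.94 in YSGr males, against 4.18, 4.22 and 4.20 in SG females and 4.20, 4.24 and 3.82 in SG males. The genotypes were apart in both sexes, and even YSGr female 12, the lowest YSGr library, stood clear of SG male 2, the highest SG library. The means were 47.6 CPM in YSGr and 17.5 CPM in SG (log2 fold change 1.39, SE 0.15, adjusted p = 0.00018). Ifi27 stood at 3.67, 3.21 and 2.53 log2 CPM in YSGr females and 3.14, 3.17 and 3.30 in YSGr males, against 1.95, 2.26 and 2.30 in SG females and 2.08, 3.00 and 2.04 in SG males. SG male 2 overlapped YSGr female 12 (log2 fold change 0.90, SE 0.22, adjusted p = 0.021), and the call was lost without SG female 4 or without YSGr female 10. Rtp4, a receptor chaperone, stood at 0.27 to 2.27 log2 CPM in YSGr and -0.21 to 1.12 in SG (log2 fold change 1.03, SE 0.37, adjusted p = 0.092). Ifi44 stood at -1.21 to 0.16 log2 CPM in YSGr and -2.24 to -0.25 in SG (log2 fold change 0.81, SE 0.34, adjusted p = 0.13). Ifi35 stood at 0.82 to 1.52 log2 CPM in YSGr and 0.26 to 1.78 in SG (log2 fold change 0.41, SE 0.25, adjusted p = 0.30).

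Of the 30 members tested, Oas1a, Ifit1, Bst2 and Lgals3bp had no overlap between the genotypes, with all 6 YSGr libraries above all 6 SG libraries. Over all genes tested, 2.93% had this order. Oas1a and Ifit1 passed the filter through YSGr libraries, so their separation is no support, and Bst2 and Lgals3bp passed on the SG libraries alone.

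The study's title names sex differences, and the fold changes were therefore also taken within each sex. In females, Bst2 and Lgals3bp were called higher and none of the members lower (9 members had an unadjusted p under 0.05), while 1.15% of all genes tested were called higher. In males, 10 members were called higher and none lower (19 members had an unadjusted p under 0.05), while 4.43% of all genes tested were called higher. The 10 were Irf7, Stat2, Oas1a, Ifit1, Ifit3, Ifit3b, Trim30a, Xaf1, Parp14 and Lgals3bp. Of these, Oas1a, Ifit1 and Xaf1 passed the filter only through YSGr libraries, so their calls are no support. The others passed on the SG libraries alone. The median log2 fold change of the members was 0.51 in females and 0.87 in males. The male count was 1 without YSGr male 8 and SG male 2, 5 without SG male 2 alone and 5 without YSGr male 8 alone. Genes called higher in males also became fewer, from 627 of 14147 to 139 of 14034 without the pair. They were 195 of 14124 without SG male 2 alone and 166 of 14060 without YSGr male 8 alone. The median log2 fold change of the members in males was then 1.11, 0.87 and 1.08, in that order. The male count was also 5 without SG male 3, YSGr male 7 or YSGr male 9, and 6 without SG male 1, SG female 5 or SG female 6. In these fits, 307 to 465 of 14072 to 14131 genes tested were called higher in males, and the member medians were 0.83 to 0.99. The female count was 0 without SG female 4, 5 or 6 or without YSGr female 10, and 1 without SG male 1 or 3 or YSGr male 7 or 9. Over all genes tested, 32 to 59 were called higher in females where the count was 0, and 134 to 151 where it was 1. With all libraries, 162 were called higher. The member medians in females were 0.30 to 0.61 where the count was 0, and 0.48 to 0.51 where it was 1.

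The test of the difference between the sexes called none of the members. Of the 30 fold changes, 25 were larger in males, and 24 were above 0 in both sexes. Ddx58, Ifit2, Ifit3b, Eif2ak2, Cmpk2 and Samd9l were below 0 in females and above 0 in males. In limma, 0 members passed this test of female against male fold changes (3 at an unadjusted p under 0.05), and 0.00707% of all genes tested passed. Those 3 were Ifit3b, with a female minus male difference of -3.39 (SE 0.93), Ddx58 with -1.55 (SE 0.48) and Parp14 with -1.40 (SE 0.49), each at an adjusted p of 0.43. Within YSGr, 0 members differed between females and males (7 at an unadjusted p under 0.05), and 0.0778% of all genes tested did. The median female minus male log2 difference there was -0.42. Within SG, 0 members differed (2 at an unadjusted p under 0.05), and 0.0353% of all genes tested did, with a median difference of -0.02, which ran from -0.07 to 0.12 over the alternatives. The median log2 fold change of the members in females was 0.30 without YSGr female 10, 0.62 without YSGr female 11 and 0.69 without YSGr female 12. The standard deviation of Irf7 was 0.85 log2 CPM among YSGr females and 0.45 among YSGr males, and that of Ifit3 was 1.64 among YSGr females and 0.39 among YSGr males. Several other members had the reverse order. Dhx58 had 0.27 among YSGr females and 0.67 among YSGr males, Eif2ak2 0.10 and 0.49, and Herc6 0.24 and 0.48. A larger spread among YSGr females was thus not general to the members.

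**Figure D4:**
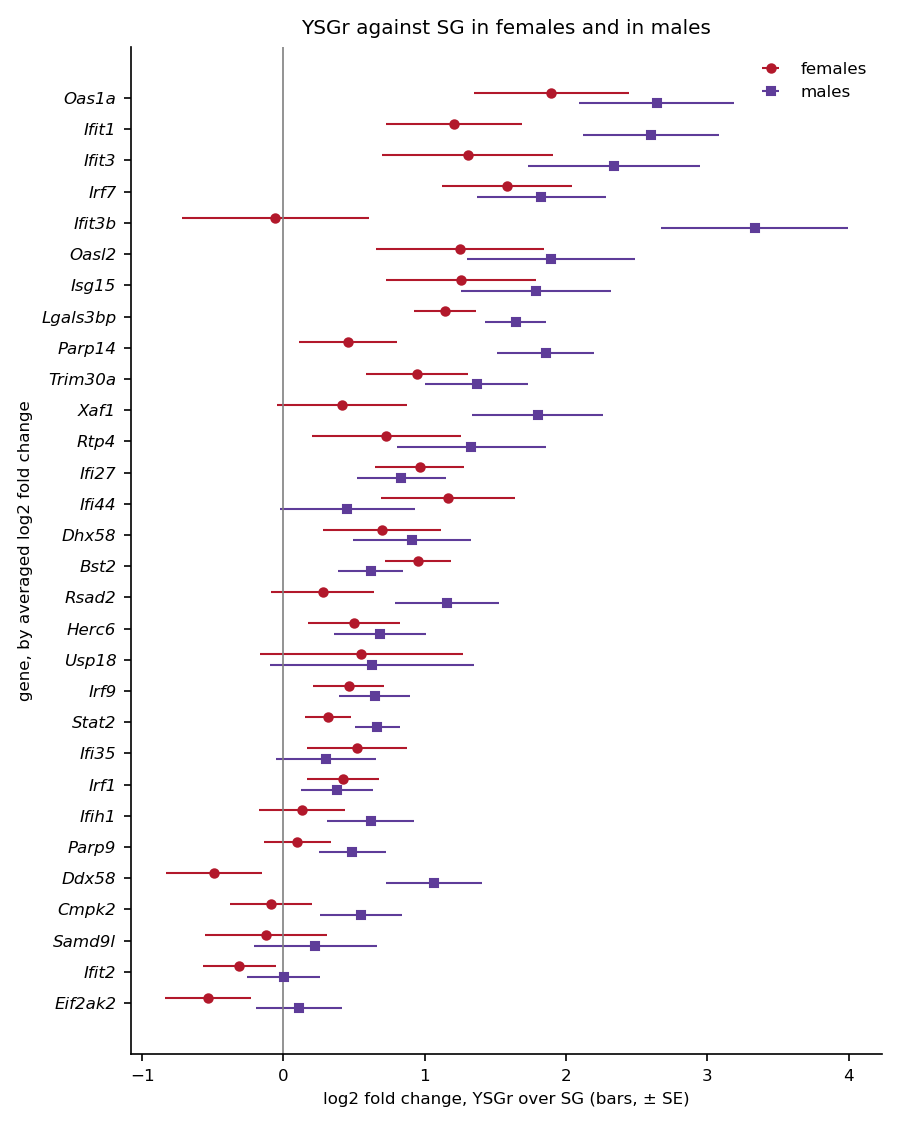
Log2 fold change of YSGr over SG for the 30 tested interferon-stimulated genes in females (circles) and in males (squares), with SE as bars, ordered by the fold change averaged over the sexes. The male value is the larger in 25 of 30 genes, and most bars of the sexes overlap or lie close, with Ifit3b, Ddx58 and Parp14 farthest apart for their error.

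Few of the genes that carry interferon signals from the cell surface were called. Of 10 interferon ligands listed, only Ifng was in the table, at 0 reads in all 12 libraries; Ifnb1 was not analysed here. Of 5 interferon receptor genes tested, 1 rose, Il10rb (log2 fold change 0.50, adjusted p = 0.013), a chain shared with the receptor of interferon lambda. Of all genes tested, 6.16% were called higher. The receptor chains Ifnar1 (log2 fold change -0.11, adjusted p = 0.54) and Ifnar2 (0.19, adjusted p = 0.24) were not called. Jak1, a kinase of the receptor, was not called (log2 fold change 0.20, adjusted p = 0.19).

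Of 16 genes of nucleic acid sensing and interferon induction, 4 rose and 0 fell, with a median log2 fold change of 0.37. The shares over all genes tested were 6.16% higher and 5.27% lower. The 4 that rose were Zbp1, a sensor of left-handed nucleic acid (1.90, adjusted p = 0.024), Aim2, a cytosolic DNA sensor (1.21, adjusted p = 0.039), the kinase gene Ikbke (1.00, adjusted p = 0.031) and the adaptor gene Myd88 (0.76, adjusted p = 0.020). Zbp1 stood at 1.79, -0.67 and -1.21 log2 CPM in YSGr females and 0.69, -0.07 and 1.12 in YSGr males, against -2.24 to -0.89 in the SG libraries. YSGr female 12 was the only YSGr library within the SG range. Zbp1 passed the filter only through YSGr libraries, so its call is no support. Of 12 genes known as brakes on interferon signalling, the phosphatase gene Ptpn6 rose (0.81, adjusted p = 0.0045), 0 fell and the median was -0.03.

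A second list of 41 tested interferon-stimulated genes, none of them among the 35, had 13 higher and 1 lower, with a median log2 fold change of 0.40. Of all genes tested, 6.16% were called higher and 5.27% lower. Genes of this list that are low in SG could also pass the filter through YSGr libraries. Cxcl10, a chemokine that attracts T cells, stood at 4.76, 3.00 and 2.55 log2 CPM in YSGr females and 3.58, 3.17 and 3.07 in YSGr males, against 0.17, -0.63 and -0.03 in SG females and 0.72, 0.14 and -0.44 in SG males. All YSGr libraries, females 11 and 12 included, lay more than 1 log2 unit above all SG libraries (log2 fold change 3.37, SE 0.35, adjusted p = 0.00012). Epsti1 (2.06, adjusted p = 0.0025), the nuclear body gene Sp100 (1.48, adjusted p = 0.0025) and Ifitm1, which blocks virus entry (1.09, adjusted p = 0.0069), also rose. Ifitm2, of the same family as Ifitm1, was the 1 that fell (log2 fold change -0.70, adjusted p = 0.024), and is named for that value. The mean of this list was 2.39, 1.85 and 1.77 log2 CPM in YSGr females and 2.32, 2.25 and 2.22 in YSGr males, against 1.44 to 1.64 in SG. Summed, its 49 genes in the table overlapped between the genotypes, at 469.5 to 565 CPM in YSGr and 438 to 569 CPM in SG, with SG male 2 highest of the 12 libraries.

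Markers of infiltrating myeloid cells also differed between the genotypes. Of 14 tested markers of macrophages and monocytes, 8 rose and 0 fell, and the 16 in the table summed to 552 to 980 CPM in YSGr and 332 to 393 CPM in SG. Of 6 neutrophil markers tested, 6 rose, and the 7 in the table summed to 16.8 to 39.7 CPM in YSGr and 10.8 to 14.9 CPM in SG. Their mean was below 0 log2 CPM in every SG library, so these markers could pass the filter through YSGr libraries. The count of 6 is therefore no support. Over all genes tested, 6.16% were called higher and 5.27% lower. Each of these markers had more than 3 reads in at least 1 library. The macrophage list averaged 3.10, 3.02 and 2.76 log2 CPM in females 10 to 12 and 3.64, 3.52 and 3.46 in males 7 to 9, against 1.87 to 2.19 in SG. The neutrophil list averaged 0.36, 1.67 and 0.21 log2 CPM in YSGr females and 1.53, 1.88 and 1.41 in YSGr males, against -1.01 to -0.72 in SG. YSGr female 12 was lowest of YSGr for the mean of the interferon-stimulated genes, the macrophage list and the neutrophil list, and YSGr male 7 was highest for the interferon-stimulated genes and the macrophage list. Other libraries differed in order. YSGr female 10 averaged 2.33 log2 CPM for the interferon-stimulated genes and 0.36 for neutrophils, and YSGr female 11 averaged 1.42 and 1.67. By summed CPM, YSGr female 11, at 552, was lowest of YSGr on the macrophage list, below YSGr female 12 at 664. Of 13 microglia markers, 0 rose and 1 fell (Gpr34), and they summed to 501 to 672 CPM in YSGr and 517 to 585 CPM in SG. T and NK cell markers were near the floor, with 8 of the 12 in the table at 3 reads or fewer in all libraries, and they summed to 4.45 to 20.6 CPM in YSGr and 5.07 to 7.54 CPM in SG. Of 7 dendritic cell markers tested, Flt3 and Bst2 rose, and Bst2 is itself one of the 35 genes. The part of these cells in the levels of the interferon-stimulated genes was not tested.

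**Figure D5:**
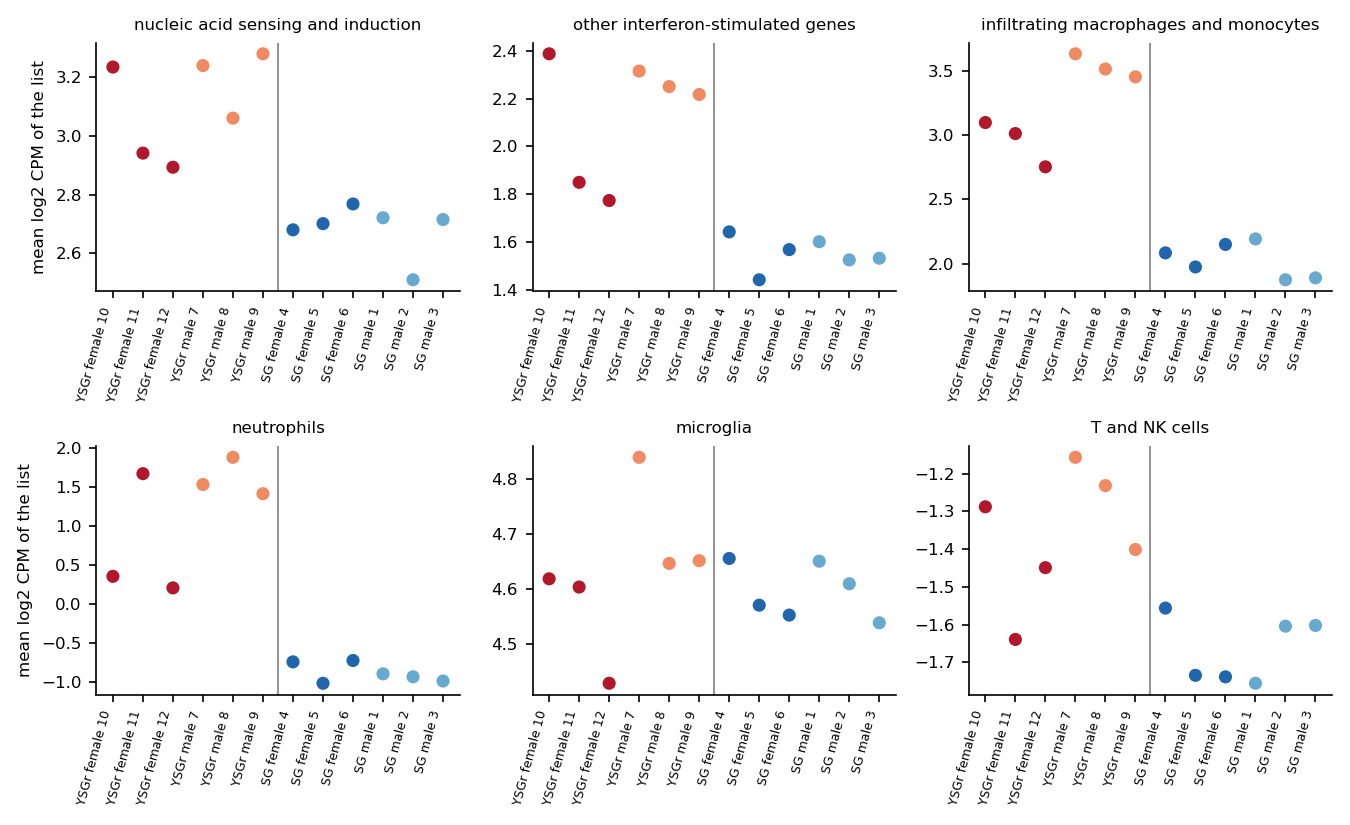
Mean log2 CPM of 6 gene lists in each library, YSGr left of SG, with a vertical scale of its own for each list. The second list of interferon-stimulated genes is highest in YSGr female 10 and in the YSGr males, every YSGr library exceeds every SG library on the macrophage list, and the microglia list runs from 4.43 to 4.84 in YSGr and 4.54 to 4.66 in SG.

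Members with and without the response element word can be set beside their levels. Of the 13 members with the word, 12 were tested and 8 rose, with a median log2 fold change of 0.97 and a range of -0.21 to 2.27. Of the 13 members with a window and no word, 12 were tested and 4 rose (Irf7, Oasl2, Xaf1 and Lgals3bp), with a median of 0.57 and a range of -0.16 to 1.70. The ranges overlapped, and Oas1a, Ifit1 and Ifit3, which hold the word, lay above every tested member without it. Oas1a, Ifit1 and Isg15, with the word, and Xaf1, without it, passed the filter only through YSGr libraries, so their calls are no support. The same holds for their places in the ranking and for their part in the 2 medians. Ifit3 and Ifit3b share sequence and are not separate evidence. Eif2ak2, Ddx58 and Ifih1 held the word and were not called, and Irf7 and Lgals3bp were called without it in this window. A second word, TTC, any 3 bases, GAA, which STAT dimers bind, stood in the windows of 6 of the 26 members (23.1%) and of 8.12% of tested genes with a window.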

How the data were processed

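BGI prepared and sequenced total RNA of tumour tissue from 12 mouse libraries (BGISEQ-500), per the labels. The authors deposited log2 CPM values per gene and library. The submitters' processing notes name edgeR 3.30.3, RSEM 1.2.12, Picard 1.95, Trimmomatic 0.33, Bowtie2 and build mm10, with no step, annotation or strand setting. Equal steps in the deposited values gave estimated reads, whole within 0.02 reads for 91.4 to 93.1% of genes, from which CPM and reads were taken; no count model was run. A gene with no reads has -2.24 log2 CPM.

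Differences were tested with limma 3.58.1 (R 4.3.3, statmod 1.5.0) on the deposited values, with 1 coefficient for each of the 4 groups, a mean-variance trend, two-sided tests and Benjamini-Hochberg adjustment over 14147 genes above 0 log2 CPM in at least 3 libraries. Adjusted p-values are from limma, called under 0.05, and fold changes include the authors' prior count. The script was tested on simulated data. The labels do not say that libraries are separate animals, so p-values cover the spread between libraries, part of which may be technical. Library numbers do not repeat and pair nothing.

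The 35 members and all lists were chosen with earlier results of these data known. Every member in the table is named, with each library's value for called members, transcription factors, RNA sensors and ISG15 genes. At most 4 genes per pathway list are named (smallest p among called, then highest mean), plus Ifnar1, Ifnar2 and Yap1; 1 pathway list is not reported here beyond Jak1; Ifitm2 and the marker genes were named after their values were seen. Paralogues were compared in GENCODE M21. Exons of Irf1, Irf7, Dhx58, Parp9, Usp18, Ifi35, Eif2ak2 and Oasl1 overlap a gene on the other strand, and those of Irf9, Herc6, Parp14 and Rtp4 one on the same strand, so reads may be shared. Alternatives were no filter, mean log2 CPM above 1, log2(CPM + 1), median centring, no trend, library weights, an additive model and leaving out libraries.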

Additional observations from a re-analysis of the deposited data

Results flagged for a closer look

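Among the 6 libraries of a genotype, 8 of 68 sets (each member in the table, and the mean of the members, in each genotype) held a library whose gap to its nearest neighbour was a large part of the range (above Dixon's 95% critical value for 6 libraries). Chance alone gives about 5% of such sets. Of the 8, 5 concerned SG male 2, which lay far from its group mean over all genes tested, and they went in both directions. SG male 2 was lowest of SG for Ifit2 at 3.84 log2 CPM, for Cmpk2 at 2.38 and for Parp14 at 0.14, and highest of SG for Trim30a at 1.52 and for Ifi27 at 3.00. Usp18 was lowest in SG female 5, at -2.24 log2 CPM with 0 reads. Lgals3bp was lowest of SG in SG male 3 at 3.82 log2 CPM, with the other SG libraries at 4.18 to 4.24. Ifi35 was lowest of YSGr in YSGr female 12 at 0.82 log2 CPM, with the next at 1.31. In males, 5 members were called without SG male 2, against 10 with it, while 195 of 14124 and 627 of 14147 genes tested were called higher.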

How the results depend on the processing

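In the comparisons of YSGr with SG, no called member changed sign, while Ifit2, Ifit3b, Eif2ak2, Ifih1, Cmpk2, Rsad2, Samd9l, Xaf1 and Parp9, where not called, did so in at least 1 setting. Of the member medians, that of females against males in SG (-0.02) did, with 0.12 without SG male 1, 0.10 without SG female 5, 0.06 without YSGr male 7, YSGr male 9 or YSGr female 10, and 0.01 without SG female 4 and with a mean log2 CPM above 1. Without a filter, with log2(CPM + 1), centring, no trend or the additive model, 12 to 15 members were called in the averaged comparison and 0 fell. In these settings 783 to 878 of 14147 to 15672 genes tested were called higher. With a mean log2 CPM above 1, 8 members were called averaged and 5 in males, since 19 members were then tested. Of the 12855 genes tested in that setting, 724 were called higher averaged and 497 in males.

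Library weights moved most values. They set YSGr female 10 at 3.33 and YSGr females 11 and 12 at 0.270 and 0.417, so that the female comparison leaned on YSGr female 10. Members called were then 24 averaged and 20 in females (19 higher and 1 lower), with a female median of 1.01 and a median female minus male difference of -0.12. Of all 14147 genes tested, 2448 were then called higher averaged and 2225 in females, against 871 and 162 without weights. Genes called were 4986 averaged, 4483 in females, 2326 in males, 675 for the difference between sexes, 1819 for females against males in YSGr and 28 in SG.

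Without YSGr male 8 and SG male 2, genes called were 1268 in females, 245 in males and 19 for females against males in YSGr. The male comparison then called 1 member higher, and 139 of 14034 genes tested. Leaving out 1 library at a time gave 9 (without SG female 4) to 15 (without YSGr female 12) members averaged, 0 to 2 in females and 5 to 12 in males. Genes called ran from 900 to 2088 averaged, 94 to 785 in females, 286 to 1662 in males, 1 to 119 for the difference and 9 to 1026 for females against males in YSGr. Those called higher were 494 to 1197 averaged, 32 to 333 in females and 166 to 993 in males, of 14060 to 14131 tested. With 3 libraries per group and few reads for Oas1a, Isg15, Usp18 and Ifi44, small differences were not detectable at this depth.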

Other observations

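Other cell classes showed changes of their own. Of 10 endothelial markers, 4 fell in YSGr and 0 rose, with a median log2 fold change of -0.45. Of all genes tested, 5.27% were called lower and 6.16% higher. Kdr, a receptor of vascular endothelial growth factor, fell by 1.55 on the log2 scale (SE 0.22, adjusted p = 0.00083). Of 8 genes of reactive astrocytes, Lcn2, Serpina3n and Gfap rose and 0 fell; the median log2 fold change was 0.04 averaged and -0.12 in females, and the 8 summed to 1190 to 2732 CPM in YSGr and 1672 to 2341 CPM in SG. Lcn2, an iron-siderophore binding protein, stood at 6.32, 5.24 and 4.80 log2 CPM in YSGr females and 6.06, 6.24 and 5.70 in YSGr males, against -2.24 to 0.99 in the SG libraries (log2 fold change 5.67, SE 0.48, adjusted p = 2.4e-05). Unlike Ifit3, Lcn2 did not place YSGr females 11 and 12 near the SG libraries.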
